A study of Mus musculus with 18 samples.

Results

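The genes described here are 10 regulators of mitochondrial biogenesis and oxidative transcription: Ppargc1a, Ppargc1b, Perm1, Esrra, Esrrg, Ppara, Ppard, Nrf1, Gabpa and Tfam. They were listed by name for their known roles, with earlier results of these data known, and were found in the count table through their Ensembl identifiers. All 10 of the 43430 gene identifiers in the table were matched, and all 10 passed the filter on low counts that left 13596 genes to be tested. RNA from isolated quadriceps myofibers of 18 C57BL/6 mice was sequenced, 1 library per mouse, to compare intermittent and daily glucocorticoid exposure in each sex. The 6 groups of 3 mice were male vehicle, male weekly prednisone, male daily prednisone, female vehicle, female weekly prednisone and female daily prednisone. All mice received intraperitoneal injections over several weeks, the weekly animals were given prednisone on 1 day of each week, and the labels name no transgene or mutation. Myofibers were the material that a strainer held back after collagenase digestion, so fat, vessels and other cells can come along, and each library held between 10506661 and 14686654 counts. The 10 myofiber markers summed to between 99032 and 182964 CPM in every library, whereas macrophage markers summed to 39.0 to 129 CPM. Markers of other cells were higher than those of macrophages. They summed to 480 to 1352 CPM for endothelial cells, 1032 to 3649 CPM for fibroblasts and 354 to 6887 CPM for adipocytes.

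In skeletal muscle, coactivators of the PGC-1 family bind to nuclear receptors and to the nuclear respiratory factors, and raise transcription of genes for the respiratory chain and fatty acid oxidation. The estrogen-related receptors and the PPARs bind such genes directly. NRF1 and GABPA, the DNA-binding subunit of NRF-2, also act on Tfam, whose product acts in the transcription, packaging and maintenance of mitochondrial DNA. The network is known from endurance exercise, slow oxidative fibers and brown fat. Its members are expressed by myofibers and, to differing degrees, by adipocytes.

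Promoter sequence was drawn from RefSeq windows that run from 250 bases before to 50 bases after a transcription start (assembly GRCm38.p6, the build of the counts), and 9 of the 10 genes had at least 1 window. The stretches below are shown because each holds the motif of a factor that belongs to the network or acts on it, and for 4 of them bases inside annotated exons were left out. Capitals mark the motif, and each sequence reads 5′ to 3′ on the strand of its gene. The stretches of Gabpa and Tfam lie inside annotated exons, and for these only the site and its flanks are given.
Ppargc1a promoter, mm10 chr5:51567727-51567975, minus strand: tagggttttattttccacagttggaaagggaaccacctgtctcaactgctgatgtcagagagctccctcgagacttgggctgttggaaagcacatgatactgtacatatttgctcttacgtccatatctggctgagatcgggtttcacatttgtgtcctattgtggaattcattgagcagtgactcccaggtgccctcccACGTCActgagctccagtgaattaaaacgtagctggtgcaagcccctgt
Esrra promoter, mm10 chr19:6921814-6922058, minus strand: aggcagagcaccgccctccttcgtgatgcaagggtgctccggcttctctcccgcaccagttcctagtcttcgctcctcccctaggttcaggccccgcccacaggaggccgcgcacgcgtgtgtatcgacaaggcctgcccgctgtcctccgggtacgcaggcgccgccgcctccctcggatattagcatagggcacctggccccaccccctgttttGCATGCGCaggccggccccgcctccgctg
Esrrg promoter, mm10 chr1:187608900-187609005, plus strand: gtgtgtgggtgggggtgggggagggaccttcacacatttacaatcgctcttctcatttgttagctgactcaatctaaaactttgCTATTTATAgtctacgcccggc
Ppara promoter, mm10 chr15:85735714-85735775, plus strand: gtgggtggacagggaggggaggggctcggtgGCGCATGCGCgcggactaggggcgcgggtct
Gabpa promoter, mm10 chr16:84835020-84835049, plus strand: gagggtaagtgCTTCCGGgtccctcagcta
Tfam promoter, mm10 chr10:71238073-71238102, minus strand: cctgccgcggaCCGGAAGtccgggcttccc

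Searched on both strands, the NRF1 motif GCATGCGC stood 34 bases before the start of Esrra and at overlapping positions, 31 and 29 bases before the start, in Ppara. This motif was held by 2.71% of all 32851 promoter windows. The GABP motif CCGGAAG lay 93 bases before the Gabpa start, in reverse orientation, and 47 bases before the Tfam start, and it was held by 8.86% of windows. The cyclic AMP response motif TGACGT lay in reverse 50 bases before the Ppargc1a start (7.51% of windows), and the MEF2 motif CTATTTATA lay 22 bases before an Esrrg start (0.429% of windows). No window of the 10 genes held the estrogen-related receptor motif TCAAGGTCA (0.423% of windows) or the full glucocorticoid receptor motif, AGAACA and TGTTCT with 3 bases between, (0.00913% of windows). The short glucocorticoid receptor motif TGTTCT, which the full motif contains and which was present in 19.0% of windows, occurred once each in windows of Nrf1 and Tfam. These matches describe letters in these windows and do not show that a factor binds there.

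Levels were compared between genes as CPM (counts scaled to the effective size of each library) per kilobase of exon, in the 6 vehicle libraries. Perm1, a muscle regulator induced by the PGC-1 coactivators, was at 25.7 ± 5.53 (SD, n = 6) and Esrra, which encodes ERRα, at 16.5 ± 3.90, with overlapping ranges. Tfam followed at 7.90 ± 0.239, below every Esrra value and above every value of the genes after it. Ppard was at 3.37 ± 0.366, Gabpa at 2.96 ± 0.399 and Ppargc1a at 2.35 ± 0.473, and each overlapped its neighbor in this order. Nrf1, at 1.09 ± 0.184, overlapped neither Ppargc1a above it nor Ppargc1b below it. Ppargc1b at 0.487 ± 0.170, Esrrg at 0.289 ± 0.171 and Ppara at 0.262 ± 0.168 overlapped one another. Those 3 genes also varied most among the 18 libraries, by 14.8-fold in Ppargc1b, 22.4-fold in Esrrg and 39.2-fold in Ppara from the lowest to the highest library, against 1.54-fold in Tfam.

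**Figure D1:**
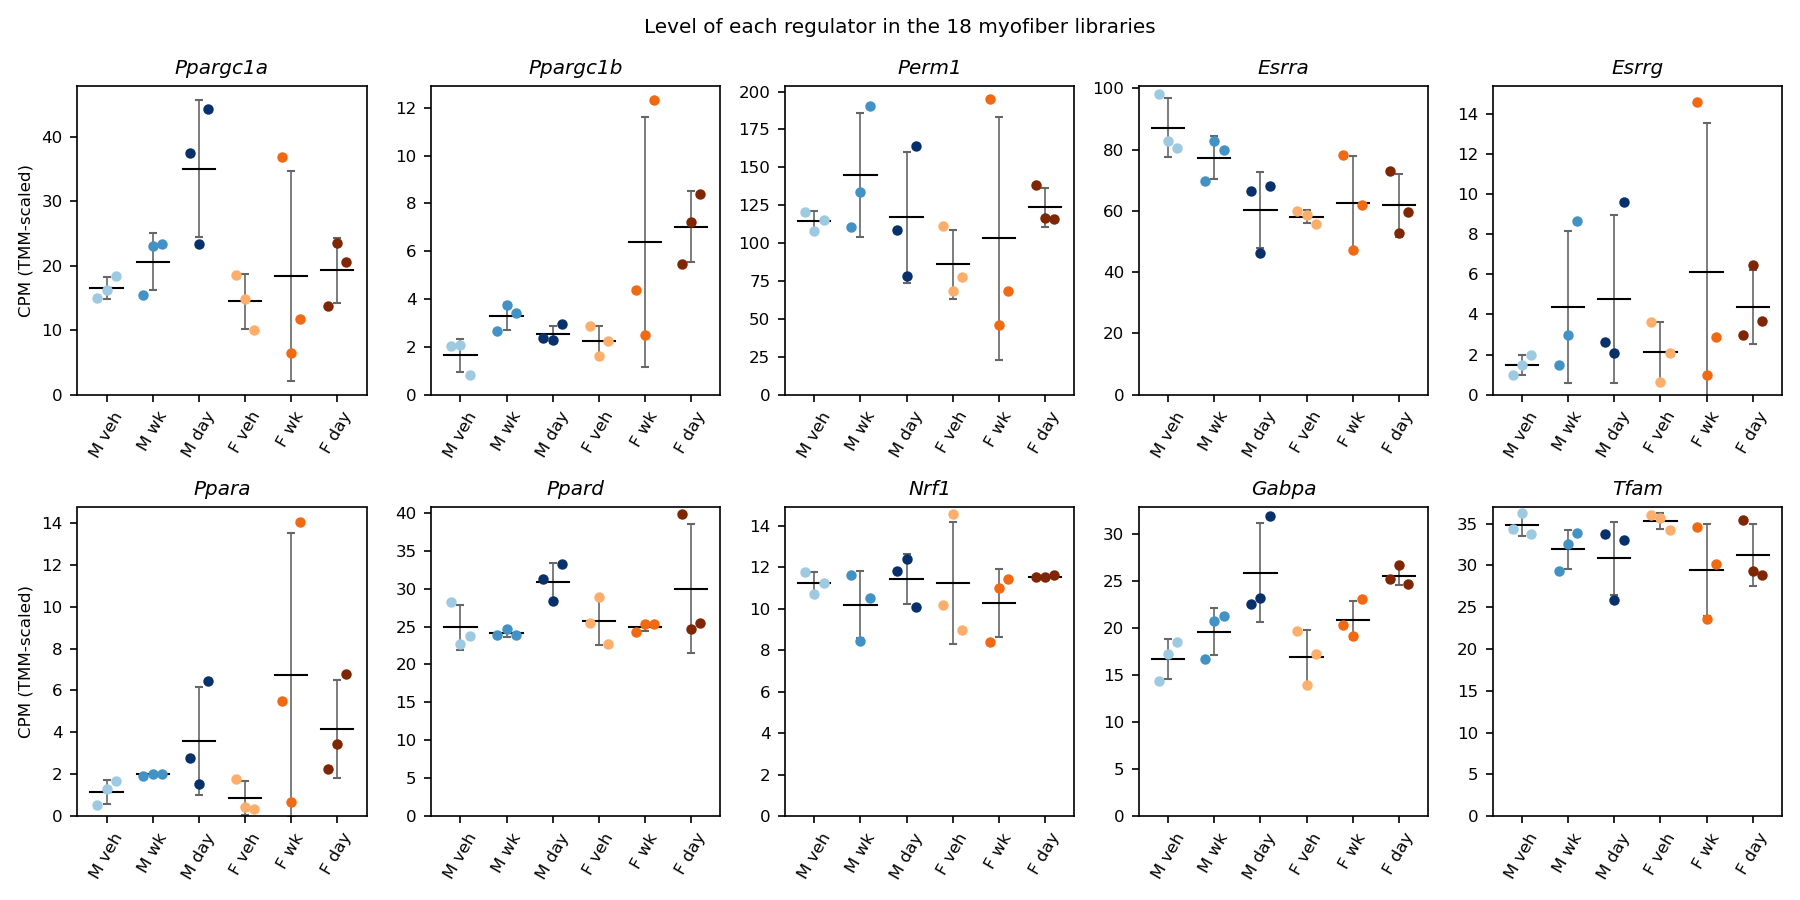
CPM of each regulator (linear axes from 0) in the 3 libraries of each group (M, male; F, female; veh, vehicle; wk, weekly; day, daily), with a line at the mean and bars of 1 SD, cut off where they would pass below 0. Gabpa lay between 22.5 and 31.9 CPM in the 6 daily libraries and between 13.9 and 19.6 in the 6 vehicle libraries, whereas Ppara, Esrrg and Perm1 had isolated high libraries in the weekly groups.

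Daily prednisone was tested against vehicle in each sex and as the mean of both sexes. In daily prednisone–treated males 1 of the 10 regulators passed the test (edgeR quasi-likelihood, Benjamini-Hochberg adjusted p under 0.05 over all tested genes), which was Gabpa, against 6.46% of all tested genes. In daily prednisone–treated females 0 passed, against 0.382% of all genes, and the smallest adjusted p was 0.0881. There, 3 of the 10 had an unadjusted p under 0.05, against 17.3% of genes. DESeq2 called 2 of the 10 in females, Ppargc1b and Gabpa, but the shares given here are those of edgeR and do not apply to these 2 calls. As the mean of both sexes 2 regulators rose, Gabpa and Ppargc1b, against 15% of all genes called and 7.48% called higher. The median log2 fold change of the 10 genes was 0.45 in males and 0.47 in females, beside 0.05 and 0.01 over all tested genes. In males 5 regulators were higher in every daily library than in every vehicle library (16.4% of genes) and 2 were lower (17.1% of genes). In females 4 were higher (12.9% of genes) and none was lower (10.2% of genes).

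Ppargc1a encodes PGC-1α, the coactivator best known for driving mitochondrial biogenesis in muscle (ENSMUSG00000029167, mm10 chr5:51454249-51567725). Its levels were 15.01, 16.3 and 18.3 CPM in vehicle males, 15.5, 23.0 and 23.3 in weekly males, and 37.4, 23.4 and 44.3 in daily males. In females they were 18.5, 14.8 and 10.03 with vehicle, 36.9, 6.51 and 11.6 with weekly prednisone, and 13.7, 23.5 and 20.6 with daily prednisone. All 3 daily males lay above all vehicle and weekly males, while the female groups overlapped, and female weekly prednisone held both the lowest library of all 18 and one of the highest. The male daily difference was 1.08 ± 0.46 on the log2 scale (SE), or 2.11-fold with a 95% interval of 1.07 to 4.19, and did not pass over all genes (edgeR adjusted p = 0.178). It passed in a fit of only the compared groups (1.07, adjusted p = 0.0176), without the slow-fiber-rich libraries (1.09, adjusted p = 0.0322) and without the adipocyte-rich libraries (1.10, adjusted p = 0.0307), which are all libraries of other groups, and with the adipocyte score described below as a covariate it was 0.49 (adjusted p = 0.667). In females it was 0.41 ± 0.46 (adjusted p = 0.683), and the sexes' daily responses were not shown to differ (female minus male, -0.66 ± 0.65, adjusted p = 0.889).

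Ppargc1b encodes PGC-1β, a related coactivator of oxidative and lipid genes (ENSMUSG00000033871, mm10 chr18:61298136-61400431). In females it stood at 2.88, 1.63 and 2.24 CPM with vehicle and at 5.45, 7.23 and 8.40 with daily prednisone, and the groups did not overlap. Weekly females were at 4.36, 2.49 and 12.3 CPM, which overlapped vehicle. Male levels were 2.02, 2.06 and 0.833 CPM with vehicle, 2.64, 3.75 and 3.41 with weekly prednisone and 2.36, 2.26 and 2.94 with daily prednisone, so that each treated male library was above each vehicle male. Ppargc1b rose with daily prednisone as the mean of both sexes by 1.11 ± 0.33 on the log2 scale (edgeR adjusted p = 0.0343), with 1.63 ± 0.45 in females (adjusted p = 0.0900) and 0.60 ± 0.49 in males (adjusted p = 0.506). The mean call held in 4 of 12 fits that each left out 1 library (adjusted p 0.0294 to 0.0783), and was lost without any 1 daily male, without vehicle male replicate 3, and without replicate 2 or 3 of the daily or the vehicle females. It was also lost with limma-voom (adjusted p = 0.0599). The gene was thinly covered in males, with 8 to 23 counts in the vehicle libraries.

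Adipocyte genes also differed between daily and vehicle libraries. The summed level of 10 adipocyte markers, all detected in every group, was 354 to 820 CPM in the 6 vehicle libraries, 752 to 1870 CPM in daily males and 1211 to 4107 CPM in daily females. With the adipocyte score, the mean log2 CPM of these markers, as a covariate, the mean Ppargc1b difference was 0.16 and was not called (adjusted p = 0.887), and with a brown adipocyte score it was 0.56 (adjusted p = 0.279). Without the 3 libraries richest in adipocyte markers, which were weekly female replicates 1 and 3 and daily female replicate 3, it was 1.05 and was called (adjusted p = 0.00810). The adipocyte score was 2.59 to 3.79 in the vehicle libraries and 4.59 to 7.67 in the daily libraries, without overlap. As a covariate it therefore takes up part of the daily difference itself. A call lost with this covariate, here or for other genes, cannot separate fat content from treatment. In bulk RNA more cells of a type and more RNA per cell cannot be told apart.

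Perm1 encodes a striated muscle regulator of oxidative and contractile genes that acts with the PGC-1 coactivators and estrogen-related receptors (ENSMUSG00000078486, mm10 chr4:156215868-156221307). Females were at 112, 68.6 and 77.8 CPM with vehicle and 138, 116 and 116 with daily prednisone, and every daily female was above every vehicle female. Males were at 121, 108 and 115 CPM with vehicle and at 109, 78.2 and 164 with daily prednisone, which overlapped. The log2 differences were 0.52 ± 0.41 in females (edgeR adjusted p = 0.546) and 0.03 ± 0.41 in males (adjusted p = 0.979). Weekly females ran from 46.2 to 195 CPM and weekly males from 111 to 191 CPM, so the spread inside the weekly groups exceeded the distance between any group means.

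Esrra encodes ERRα, a receptor that binds respiratory chain genes and is itself a partner and target of PGC-1α (ENSMUSG00000024955, mm10 chr19:6910977-6921813). Vehicle males stood at 98.1, 82.7 and 80.5 CPM, weekly males at 69.6, 82.7 and 79.9, and daily males at 66.4, 46.1 and 68.2. Every daily male was below every vehicle and every weekly male, by 0.53 ± 0.18 on the log2 scale against vehicle, but the difference did not pass over all genes (edgeR adjusted p = 0.0902). Vehicle females were at 59.9, 58.7 and 55.6 CPM, all below every vehicle male, as were 9.22% of tested genes (female minus male, -0.59 ± 0.18, adjusted p = 0.203). Daily females, at 73.0, 52.8 and 59.6 CPM, overlapped vehicle females, with a difference of 0.09 ± 0.18 (adjusted p = 0.836). The daily difference in females minus that in males was 0.62 ± 0.26, which did not pass the test (adjusted p = 0.889). Esrra shares 73 exon bases with Trmt112 on the opposite strand, and without a stated strand setting reads from that overlap cannot be told apart; Trmt112 fell in daily males, by 0.76 ± 0.16 on the log2 scale (adjusted p = 0.0137).

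Esrrg encodes ERRγ, a receptor typical of slow oxidative fibers and heart (ENSMUSG00000026610, mm10 chr1:187608791-188214885). Its levels were 0.966, 1.47 and 1.98 CPM in vehicle males, 1.495, 2.98 and 8.64 in weekly males and 2.64, 2.07 and 9.60 in daily males. Females were at 3.64, 0.652 and 2.06 CPM with vehicle, 14.6, 0.957 and 2.85 with weekly prednisone and 2.99, 6.48 and 3.69 with daily prednisone. Every daily male exceeded every vehicle male, and all other groups overlapped their vehicle group. The log2 differences from vehicle were large and imprecise, from 1.02 ± 0.91 in daily females to 1.66 ± 0.97 in daily males, and none was called (edgeR adjusted p 0.324 to 0.849). 1 library in each of the weekly groups and in daily males held the high value.

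Ppara encodes PPARα, the fatty acid–activated receptor that induces genes of lipid oxidation (ENSMUSG00000022383, mm10 chr15:85734983-85802819). It was at 1.78, 0.435 and 0.358 CPM in vehicle females, 5.50, 0.670 and 14.03 in weekly females, and 2.23, 3.46 and 6.77 in daily females. Male levels were 0.527, 1.28 and 1.67 CPM with vehicle, 1.94, 2.02 and 2.02 with weekly prednisone and 2.78, 1.51 and 6.46 with daily prednisone. Daily females and weekly males lay wholly above their vehicle groups, and the other comparisons overlapped. As the mean of both sexes the daily difference was 1.92 ± 0.62 on the log2 scale, just short of the threshold (edgeR adjusted p = 0.0509), with 2.23 ± 0.89 in females (adjusted p = 0.207) and 1.61 ± 0.88 in males (adjusted p = 0.293). Vehicle females had as few as 4 counts of Ppara. With the adipocyte score as a covariate the mean Ppara difference was 0.16 (adjusted p = 0.943), and without the 3 adipocyte-rich libraries it was 1.66 and was called (adjusted p = 0.0253). It was also called without daily female replicate 1, vehicle female replicate 1 or daily male replicate 2 (adjusted p = 0.0384, 0.0307 and 0.0461), and over the other 9 single left-out libraries it was not.

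Ppard encodes PPARδ, the predominant PPAR of muscle, which induces oxidative and fatty acid genes (ENSMUSG00000002250, mm10 chr17:28232754-28301469). Daily males, at 31.2, 28.4 and 33.2 CPM, all lay just above vehicle males at 28.3, 22.7 and 23.7, by 0.31 ± 0.16 on the log2 scale (edgeR adjusted p = 0.259). Daily females, at 39.8, 24.7 and 25.4 CPM, overlapped vehicle females at 25.4, 28.9 and 22.7, with a difference of 0.22 ± 0.16 (adjusted p = 0.504). Weekly libraries were tightly grouped in both sexes, between 23.8 and 25.3 CPM, and differed from vehicle by -0.04 ± 0.16 in each sex.

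Nrf1 encodes a factor that binds promoters of nuclear respiratory genes and of Tfam (ENSMUSG00000058440, mm10 chr6:30047988-30153458). Its level was between 8.38 and 14.6 CPM in all 18 libraries, and daily prednisone changed its estimate by 0.03 ± 0.18 in males and 0.05 ± 0.18 in females (edgeR adjusted p = 0.944 and 0.925). The 95% intervals, from -0.35 to 0.41 in males and from -0.33 to 0.42 in females, leave out changes of the size seen in the mean of Ppargc1b or Gabpa. Weekly differences were -0.14 ± 0.18 in males and -0.13 ± 0.18 in females (adjusted p = 0.908 and 0.967).

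Gabpa, with the GABPB proteins, forms NRF-2, which binds promoters of cytochrome oxidase genes and Tfam, and it had the smallest p of the 10 regulators in daily males and in the mean of both sexes (ENSMUSG00000008976, mm10 chr16:84834925-84863779). Vehicle males were at 14.4, 17.3 and 18.5 CPM, weekly males at 16.7, 20.8 and 21.3, and daily males at 22.5, 23.2 and 31.9. Vehicle females were at 19.6, 13.9 and 17.3 CPM, weekly females at 20.4, 19.1 and 23.1, and daily females at 25.3, 26.7 and 24.7. In both sexes every daily library lay above every vehicle and every weekly library of the same sex. Gabpa rose by 0.63 ± 0.16 on the log2 scale in daily males (1.54-fold, edgeR adjusted p = 0.0326) and by 0.61 ± 0.12 as the mean of both sexes (1.52-fold, adjusted p = 0.00296), and the female difference was 0.59 ± 0.16 (adjusted p = 0.0881). The female response minus the male response was -0.04 ± 0.23 (95% interval -0.52 to 0.45).

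The call of Gabpa in males held in 1 of 6 fits that each left out 1 male daily or vehicle library, the one without daily male replicate 1, (adjusted p 0.0452 to 0.134) and was lost when trends with gene length and GC content were removed (0.40). The mean of both sexes stayed called in all 12 such fits (0.54 to 0.68 on the log2 scale) and without the adipocyte-rich libraries (0.63, adjusted p = 0.00518), but not with the adipocyte score as a covariate (0.55, adjusted p = 0.131). Gabpa shares 397 exon bases with Atp5j, an ATP synthase subunit gene on the opposite strand with many more counts, and without a stated strand setting reads from that overlap cannot be told apart, so that the Gabpa values may hold some of them. Atp5j was lower in daily males, at 182 ± 23.5 CPM, than in vehicle males, at 288 ± 12.4 CPM (-0.66 ± 0.21, adjusted p = 0.0716). In females it was at 210 ± 35.5 CPM with daily prednisone and 271 ± 28.0 CPM with vehicle, and the groups overlapped (-0.37 ± 0.21, adjusted p = 0.389).

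Tfam encodes a factor that acts in the transcription and packaging of mitochondrial DNA (ENSMUSG00000003923, mm10 chr10:71225464-71238280). Vehicle males were at 34.41, 36.30 and 33.74 CPM and daily males at 33.72, 25.84 and 33.00, and every daily male was below every vehicle male by a narrow margin. Daily females, at 35.5, 29.4 and 28.8 CPM, overlapped vehicle females at 36.0, 35.6 and 34.2. The log2 difference was -0.18 ± 0.14 in each sex (edgeR adjusted p = 0.492 in males and 0.553 in females). Weekly differences were -0.12 ± 0.14 in males and -0.26 ± 0.14 in females (adjusted p = 0.895 and 0.695).

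**Figure D2:**
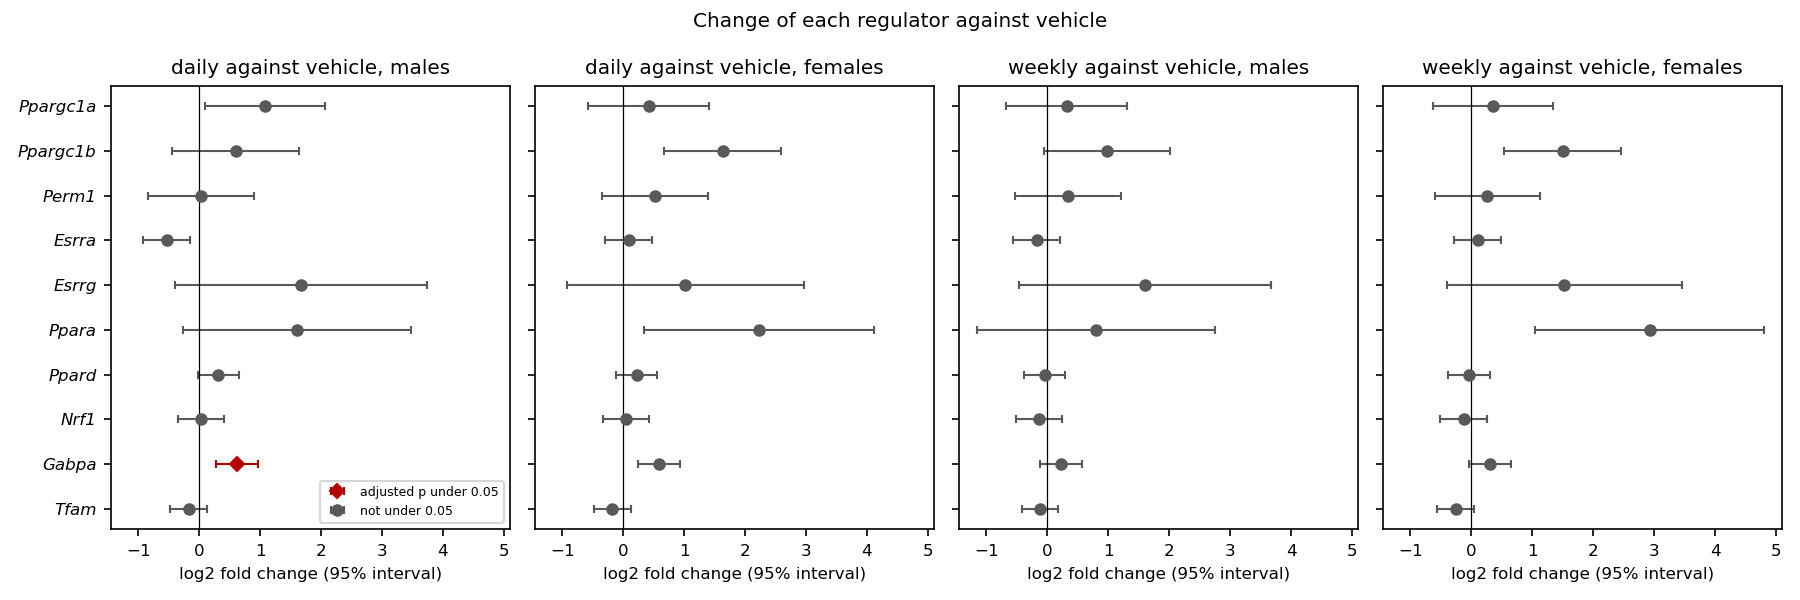
Log2 fold change against vehicle (x axis, points) with 95% intervals (bars) of the 10 regulators (y axis) in the 4 comparisons with n = 3 mice per group. Gabpa in daily males is the one value that passed (diamond), and intervals are widest for Esrrg and Ppara, which had 926 and 733 counts over all 18 libraries.

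Weekly prednisone was compared with vehicle in the same way. None of the 10 regulators passed in males, in females or as the mean of both sexes, and 0% of all tested genes did. With DESeq2 the calls were 0 in males, 1 in females (Ppara) and 1 in the mean (Ppargc1b), and the shares given here are those of edgeR and do not apply to them. At an unadjusted p under 0.05 in edgeR there were none in males (5.71% of genes), 2 in females (7.97% of genes) and 4 as the mean of both sexes (11% of genes). In females the 2 were Ppara, at 2.93 ± 0.88 on the log2 scale, and Ppargc1b, at 1.497 ± 0.46 (edgeR adjusted p = 0.309 for both). In males 2 regulators, Ppargc1b and Ppara, were higher in every weekly than in every vehicle library (7.76% of genes), by 0.98 ± 0.49 and 0.80 ± 0.92 (adjusted p = 0.849 and 0.895). Median log2 differences of the 10 genes were 0.27 in males and 0.28 in females, beside 0.01 in both over all genes.

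High weekly values came from few libraries, which also stood apart in markers of fiber type and fat. Female weekly replicate 1 had 2447 CPM over 10 slow-fiber markers and male weekly replicate 3 had 621 CPM, against 113 to 240 CPM in the other 16 libraries. In these libraries Esrrg reached 14.6 and 8.64 CPM and Perm1 195 and 191 CPM, the highest Perm1 values of all, and Myh7, the slow myosin, stood at 668 and 94.6 CPM. Female weekly replicate 3 had the highest summed adipocyte markers, 6887 CPM, the highest brown adipocyte markers, 436 CPM, and the highest Ppargc1b and Ppara, 12.3 and 14.03 CPM. Ucp1, which defines brown fat, was at 307 CPM there and between 0 and 0.179 CPM in the 6 vehicle libraries. Without the slow-fiber-rich libraries the female weekly difference of Esrrg was -0.18 and that of Perm1 -0.61, instead of 1.53 and 0.26. Without the adipocyte-rich libraries, weekly females were replicate 2 alone, which was assumed to vary like the other groups, and the difference of that 1 library from vehicle was -0.38 for Ppara and 0.15 for Ppargc1b, instead of 2.93 and 1.497. Leaving out female weekly replicate 2, which had the lowest Ppargc1a and Perm1 of all libraries, both Ppara (3.41, adjusted p = 0.0212) and Ppargc1b (1.84, adjusted p = 0.0231) were called in weekly females.

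**Figure D3:**
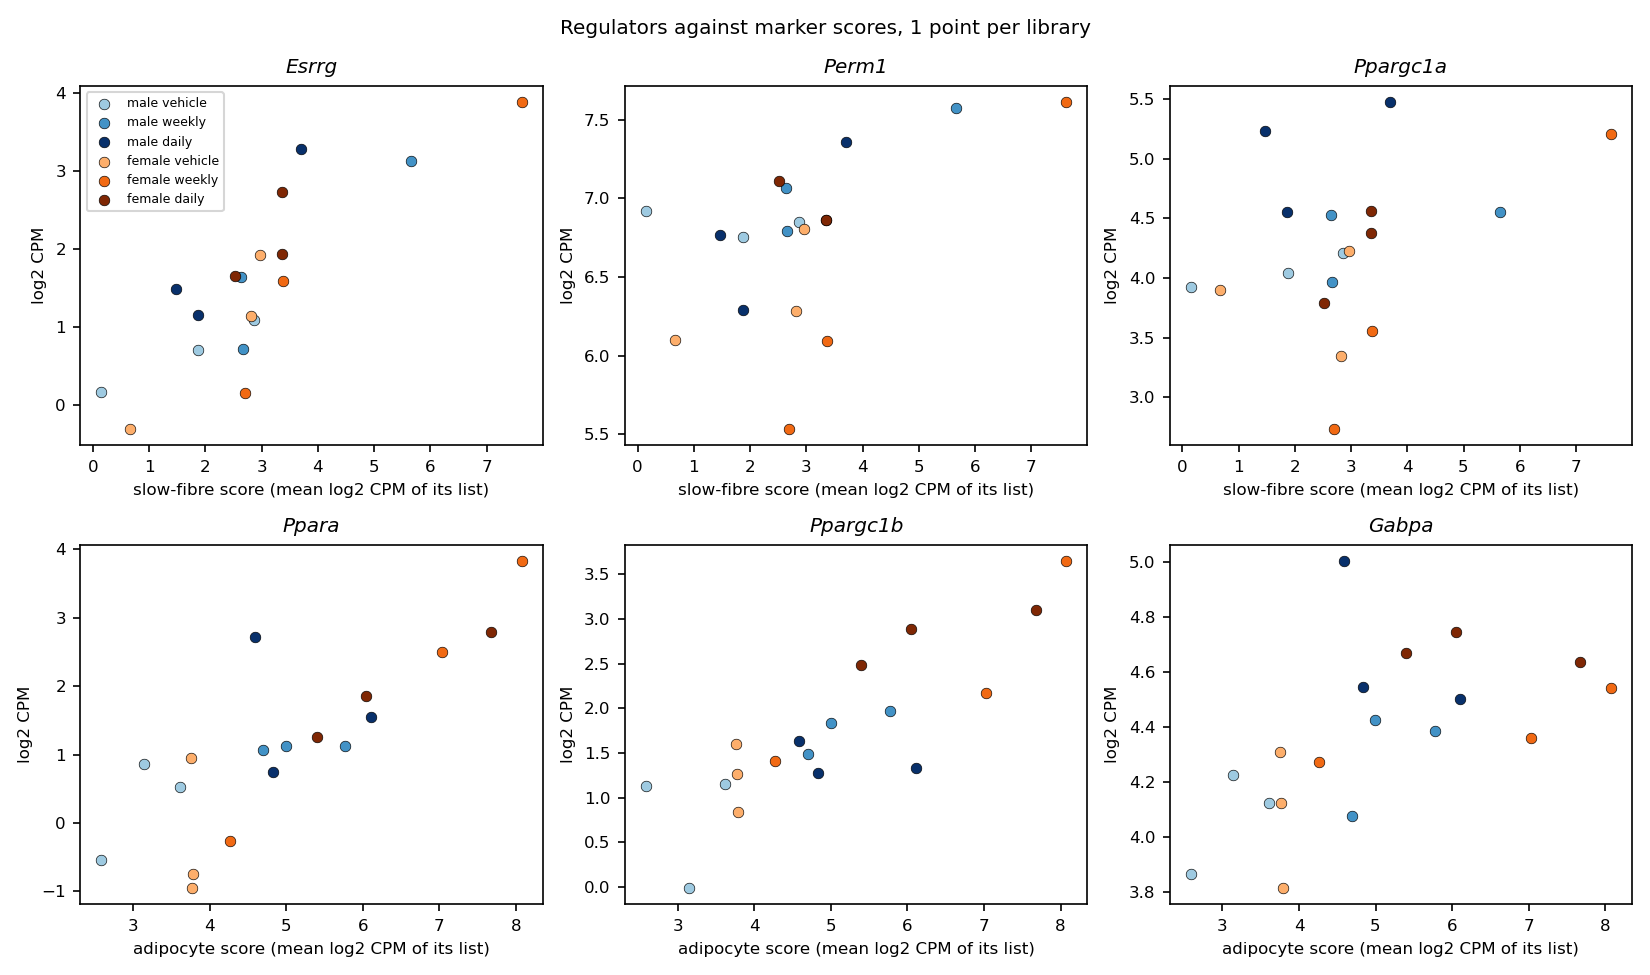
Log2 CPM (y axis) of 3 regulators against the slow-fiber score (top) and 3 against the adipocyte score (bottom), where a score is the mean log2 CPM of a marker list and each point is 1 of 18 libraries, colored by group. Esrrg was higher at higher slow-fiber scores (r = 0.84) and Ppara and Ppargc1b at higher adipocyte scores (r = 0.82 and 0.85). The 6 daily libraries were at the upper end for Gabpa. Their adipocyte scores ran from 4.59 to 7.67, all above the vehicle scores of 2.59 to 3.79.

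Over the 18 libraries, which differ in treatment, sex and fat content as well as in these genes, Esrrg followed the slow-fiber score with Pearson r = 0.84 and Spearman rho = 0.76, and with r = 0.73 when the 2 slow-fiber-rich libraries were left out. Its r over deviations from the group means was 0.92. For Perm1 the corresponding values were r = 0.53 and rho = 0.40, with r = 0.15 without those 2 libraries, so the relation over all libraries rested on them. Over deviations from group means, with those 2 libraries kept, r was 0.81 for Perm1. Ppargc1b followed the adipocyte score with r = 0.85 and rho = 0.83, and Ppara with r = 0.82 and rho = 0.81. Leaving out the 2 libraries farthest from the median score, these were 0.72 and 0.69, and over deviations from group means 0.65 and 0.72. Gabpa had r = 0.58 with the adipocyte score over all libraries and 0.16 over deviations from group means. These 40 relations of 10 genes with 4 scores are descriptions and were not tested.

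Daily and weekly prednisone were also compared directly. No regulator passed in males, in females or as the mean of both sexes, where 0%, 0% and 8.17% of all genes were called; 2 of 10, Ppard and Gabpa, had an unadjusted p under 0.05 in males (13.5% of genes), none in females (17.7% of genes) and 2, again Ppard and Gabpa, in the mean (24.1% of genes). Gabpa was 0.34 ± 0.11 higher on the log2 scale with daily than with weekly prednisone as the mean of both sexes (edgeR adjusted p = 0.0745), and Ppard 0.31 ± 0.11 higher (adjusted p = 0.0996). DESeq2 also called no regulator in these 3 comparisons. Ppargc1a differed by 0.41 ± 0.32 (adjusted p = 0.479), but by 0.92 and past the threshold without female weekly replicate 1. None of the sex differences of the daily or the weekly response passed for any regulator, nor for any of the tested genes (0%), and at an unadjusted p under 0.05 there was 1 regulator for daily prednisone, Esrra, and 0 for weekly, against 4.69% and 2.63% of genes. No regulator passed between vehicle females and vehicle males either, against 0.765% of genes.

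Among each other, several regulators varied together when the deviations inside the 6 groups were pooled. Over deviations from group means in 18 libraries, Esrra and Tfam had r = 0.92, Perm1 and Esrrg 0.89, Ppargc1a and Perm1 0.86, and Ppargc1a and Esrrg 0.80. Perm1 also had r = 0.79 with Esrra and with Tfam, and Gabpa had 0.69 with Esrrg and 0.62 with Ppara. Ppargc1b and Ppara had r = 0.66, while Nrf1 ran opposite to Esrrg (r = -0.66) and Perm1 (r = -0.57). The spread was widest in weekly females, with an SD of log2 CPM of 1.26 for Ppargc1a, 1.07 for Perm1 and 1.88 for Esrrg. In the other groups it was at most 0.47, 0.53 and 1.22. The 3 weekly females therefore weigh heavily in these values, and no value without them is given here. Points share library depth and composition, and the values describe these libraries.

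**Figure D4:**
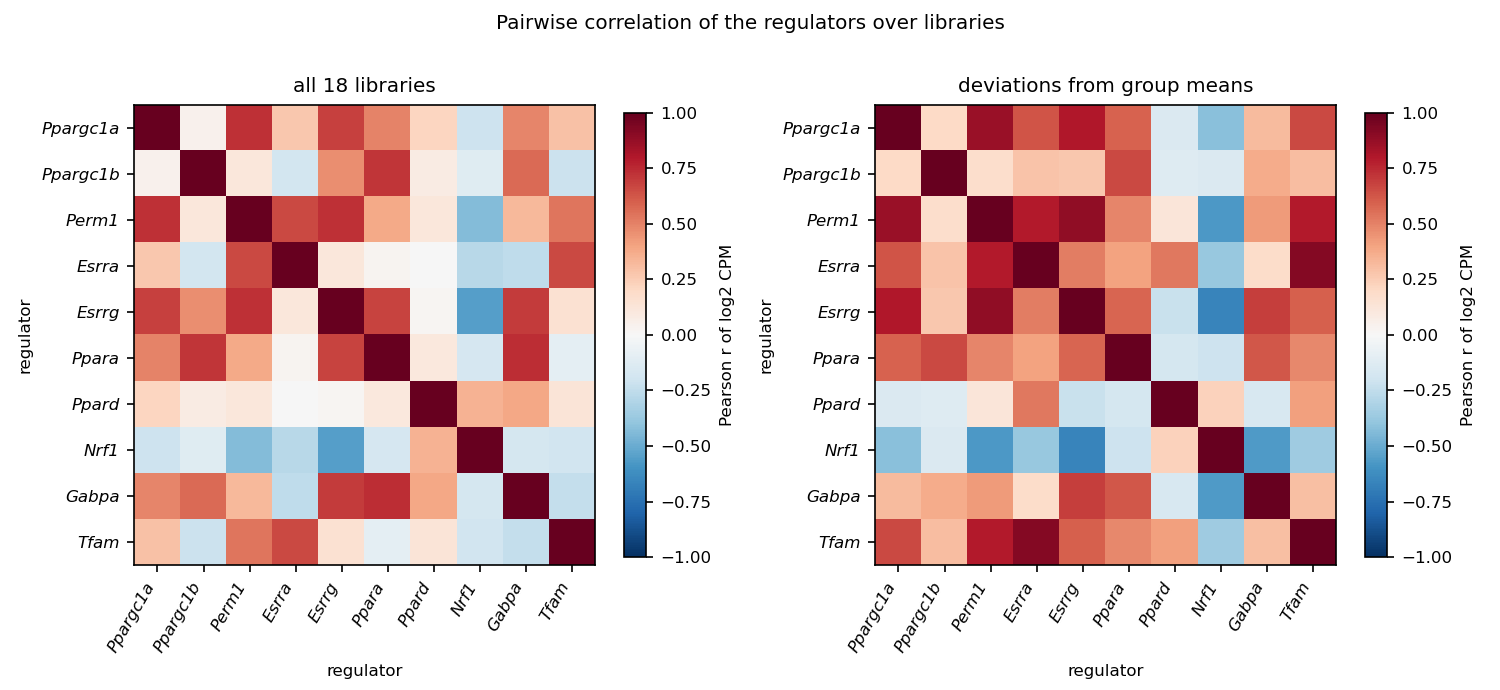
Pearson r of log2 CPM for each pair of regulators over the 18 libraries (left) and over deviations from the 6 group means (right), with both axes listing the regulators and color running from -1 to 1. Esrra with Tfam (0.92) and Perm1 with Esrrg (0.89) have the highest values on the right.

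The genes most like each regulator, by Pearson r of log2 CPM over the 18 libraries among all tested genes, differed from member to member. Perm1 was followed by Wfs1 (0.94), Ptpn3 (0.91) and Ckmt2 (0.90), the last encoding the mitochondrial creatine kinase of muscle. Esrra was followed by Uqcrc1 (0.94), a complex III subunit, Akr1b10 (0.93) and Snrpn (0.93). Esrrg was followed by Atp1b1 (0.94), Myh1 (0.90), a fast myosin, and Myom3 (0.90). Ppara was followed by Sucnr1 (0.91), Chpt1 (0.91) and Lpl (0.91), which encodes lipoprotein lipase, and Ppargc1b by Fam83a (0.92), Sfxn5 (0.91) and Ehhadh (0.90), a peroxisomal oxidation enzyme. Gabpa was followed by Ythdf3 (0.94), Sppl2a (0.92) and March7 (0.92), and Tfam by Fgfr1op (0.90), Yipf7 (0.88) and Pfdn2 (0.85). The values were lower for Ppard (Mta1 0.88, Uggt1 0.86, Pcgf3 0.85), Ppargc1a (Cul2 0.86, Rap1a 0.85, Mindy2 0.84) and Nrf1 (Safb 0.76, Max 0.74, Pom121 0.73).

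Partners, upstream kinases and targets of the regulators were followed as lists. The lists were chosen with earlier results of these data known, so their counts beside the shares of all genes are descriptions and not independent support. Of 23 cofactors tested, 10 rose and none fell with daily prednisone as the mean of both sexes, where 7.48% of all tested genes were called higher and 7.47% lower. The median of the cofactors was 0.31 beside 0.02 over all genes. In males 4 cofactors rose (6.46% of all genes called) and in females none was called (0.382% of all genes). Sirt1, the deacetylase that acts on PGC-1α, rose by 1.35 ± 0.26 on the log2 scale (edgeR adjusted p = 0.00389), Ep300, an acetyltransferase, by 0.59 ± 0.09 (adjusted p = 7.2e-04) and Ncoa2, a receptor coactivator, by 0.46 ± 0.10 (adjusted p = 0.00773). The 10 also included Nrip1 (0.89 ± 0.26) and Ncor1 (0.35 ± 0.09), which are corepressors, and Pparg (0.96 ± 0.30), the receptor of fat cells; these 3 were picked out after their values were seen. With the adipocyte score as a covariate 1 cofactor was called, with length and GC trends removed 4, and without the adipocyte-rich libraries 11. The shares of all genes called in these alternative fits are not given here, so these counts cannot be set beside the 7.48% of the main fit. In daily against weekly prednisone as the mean of both sexes 3 of the 23 cofactors were called higher and 0 lower, where 8.17% of all genes were called. Among the 3 was Mybbp1a, a repressor of PGC-1α, at 0.35 ± 0.10 higher with daily prednisone (edgeR adjusted p = 0.0382).

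Among 26 upstream genes 3 rose and 2 fell in the same comparison, a share near the 15% of all genes called: Atf2 rose by 0.46 ± 0.11, Prkaa1, a catalytic subunit of AMPK, by 0.38 ± 0.11 and Camk2d by 0.34 ± 0.09 (edgeR adjusted p = 0.00853, 0.0338 and 0.0205). The 2 that fell were Mapk12 (-0.37, adjusted p = 0.0456) and Prkag2 (-0.33, adjusted p = 0.0347), named here because the count was small. In daily against weekly prednisone as the mean of both sexes 2 of the 26 upstream genes were called higher and 0 lower, where 8.17% of all genes were called. Among the 2 was Prkab2, a regulatory subunit of AMPK, at 0.44 ± 0.12 higher with daily prednisone (edgeR adjusted p = 0.0394). Of 17 genes that maintain or express mitochondrial DNA 1 rose and 1 fell with daily prednisone against vehicle as the mean of both sexes, where 15% of all genes were called. Slirp, which stabilizes mitochondrial transcripts, fell by 0.69 ± 0.13 on the log2 scale (edgeR adjusted p = 0.00276). Polg2, the accessory subunit of the mitochondrial polymerase, was 0.78 ± 0.23 higher (edgeR adjusted p = 0.0298), whereas Mterf3 did not pass (0.33 ± 0.11).

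Of 18 PPAR targets 2 rose with daily prednisone as the mean of both sexes, near the 7.48% of all genes called higher. These were Angptl4, an inhibitor of lipoprotein lipase, by 1.75 ± 0.48 on the log2 scale (edgeR adjusted p = 0.0241) and Cpt1b, the muscle enzyme of fatty acid entry into mitochondria, by 0.72 ± 0.22 (adjusted p = 0.0355). Acsl1 was 0.99 ± 0.35 higher and did not pass. Angptl4 is also a target of the glucocorticoid receptor. With the adipocyte score as a covariate none of the 18 was called, and without the adipocyte-rich libraries 6 were. The 7.48% belongs to the main fit, and the shares of all genes called in these 2 alternative fits are not given here.

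Of 26 nuclear targets of the estrogen-related receptors and nuclear respiratory factors 8 fell and none rose with daily prednisone as the mean of both sexes, against 7.47% of all genes called lower, and the median log2 difference of the list was -0.11. In males 4 fell, where 6.46% of all genes were called, and the median was -0.31. In females none was called, where 0.382% of all genes were, 14 of the 26 differences were above 0 and the median was 0.07. The female minus the male response was above 0 in all 26, with a median of 0.34, and in 52.6% of all tested genes. In the edgeR test 0 of the 26 had an unadjusted p under 0.05. Vehicle females were already lower than vehicle males, with 2 of the 26 differences above 0 and a median of -0.24. The mean log2 CPM of the targets was 7.99 to 8.60 in daily males and 8.17 to 8.58 in daily females. The part of the vehicle difference in the sex difference of the response was not tested. Of 10 fast-fiber markers 5 were also called lower in the mean of both sexes, with a median of -0.32, and their part in the difference of the targets was not tested. The muscle cytochrome oxidase subunits Cox8b and Cox7a1 fell by 0.99 ± 0.14 and 0.92 ± 0.16 on the log2 scale (edgeR adjusted p = 7.2e-04 and 0.00184), and Cox4i1 fell by 0.62 ± 0.13 (adjusted p = 0.00612). Against weekly prednisone 7 of these genes were called lower in the mean of both sexes, where 8.17% of all genes were called, namely these 3 and Cox5b, Atp5o, Atp5g1 and Ndufb5. Of the 13 protein-coding genes of mitochondrial DNA 7 fell with daily prednisone against vehicle in the mean of both sexes, and the 13 log2 differences ran from -1.21 to 0.13. Their median was -0.59 in males and -0.88 in females. With the adipocyte score as a covariate none of the nuclear targets and none of the mitochondrial genes was called, and without the adipocyte-rich libraries 9 and 8 fell. With length and GC trends removed 4 nuclear targets and 1 mitochondrial gene were called lower. The 7.47% belongs to the main fit and does not apply to the counts of these alternative fits. No gene of these 6 lists was called with weekly prednisone against vehicle.

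Of the 10 regulators, Esrra had the highest correlation with these nuclear targets across the 18 libraries. The mean log2 CPM of the 26 targets had r = 0.87 and rho = 0.91 with Esrra, and r = 0.78 without the 2 libraries farthest from the median. With Perm1 it had r = 0.72 and rho = 0.66, and r = 0.58 without those 2 libraries. With Tfam it had r = 0.71 and rho = 0.56, and r = 0.42 without those 2 libraries. Gabpa, which rose with daily prednisone, had r = -0.21 with the same score, and Ppargc1a had r = 0.36. Over deviations from group means, with all 18 libraries kept, these values were 0.92 for Esrra, 0.88 for Perm1, 0.87 for Tfam, 0.23 for Gabpa and 0.80 for Ppargc1a. Over the same deviations Esrra, Perm1 and Tfam had r = 0.84, 0.64 and 0.74 with the mean of the fast-fiber markers. With the mean of endothelial markers they had r = -0.87, -0.74 and -0.73. The part of library composition in the relation to the targets was not tested.

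**Figure D5:**
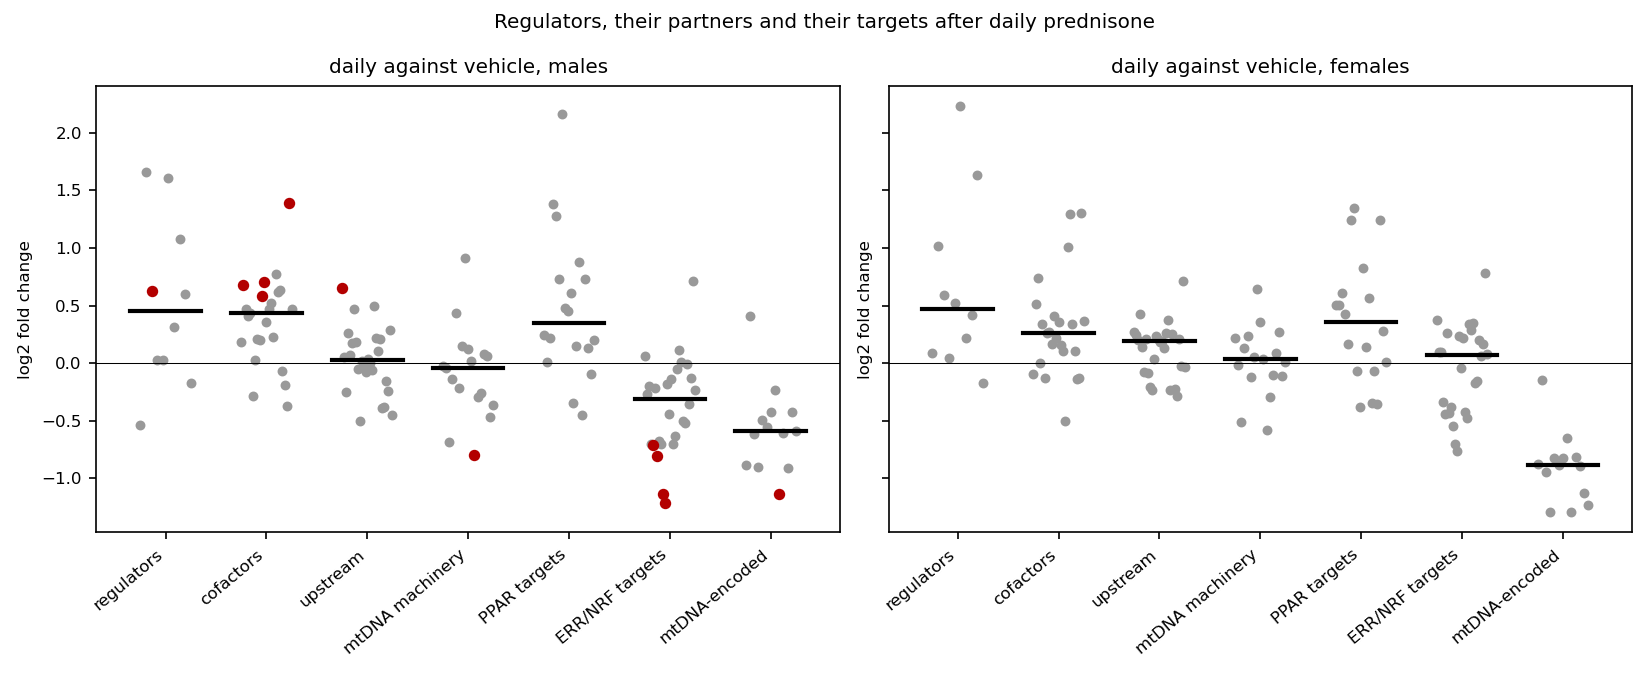
Log2 fold change (y axis) of daily prednisone against vehicle for each tested gene of 7 lists (x axis) in males and females, with called genes in red and a line at the median of each list. In males the medians of regulators (0.45) and cofactors (0.43) are above 0 and those of ERR/NRF targets (-0.31) and mtDNA-encoded genes (-0.59) below 0. In females the same medians are 0.47, 0.26, 0.07 and -0.88. No gene of the 7 lists was called in females, where 0.382% of all tested genes were.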

How the data were processed

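The members, the gene lists and the motifs were chosen with earlier results of these data known. The authors aligned reads with TopHat2 2.1.0 and Bowtie2 2.2.6 and counted them with HTSeq, according to the submitters' processing notes, which name the builds mm10 and mm9; the gene coordinates in the table match mm10. The deposited values are raw counts per gene, with no normalization, and the strand setting and annotation release are not given in the sources used here. Of 43430 identifiers, 42462 had a symbol.

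Counts were filtered with filterByExpr (minimum count 10), scaled by TMM and fitted over all 18 libraries as 6 group means in edgeR 4.0.16 (R 4.3.3, robust quasi-likelihood). Adjustment over 13596 genes followed Benjamini and Hochberg, and genes with an adjusted p under 0.05 are spoken of as called or as having passed. Standard errors come from the fold change and the F statistic. Log2 CPM used a prior count of 2, and levels per kilobase used exon bases of GENCODE release M21. Named genes were all 10 regulators, the 3 genes per list with the smallest p for daily prednisone in both sexes, any list gene called in a comparison with weekly prednisone (against vehicle or against daily), and the 3 genes most like each regulator; Nrip1, Ncor1, Pparg, Mapk12, Prkag2, Myh7, Ucp1 and the overlapping Trmt112 and Atp5j were added after their values were seen. Alternatives were DESeq2 1.42.0, limma-voom (limma 3.58.1), other scalings and filters, marker scores as covariates, length and GC trends, a replicate block and leaving out libraries. Steps were tested on simulated data.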

Additional observations from a re-analysis of the deposited data

How the results depend on the processing

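Of 2830 values of single regulators under alternatives, 2776 kept their side of the threshold and, where they had an unadjusted p under 0.05, their direction; 22 lost a call, 28 gained one and 4 turned. The 4 were Ppara in weekly females without the adipocyte-rich libraries (-0.38, where weekly females were replicate 2 alone), Ppara with weekly prednisone in both sexes with the adipocyte score as covariate (-0.19), Esrrg with weekly prednisone in both sexes with the slow-fiber score as covariate (-0.38), and Esrrg between daily and weekly prednisone with that covariate (1.17); the cause was not tested. The regulators called with daily prednisone in males, 1 in the report, were 2 with DESeq2, with only the compared groups, and without the slow-fiber-rich or the adipocyte-rich libraries, and 0 with the adipocyte or brown adipocyte score or with length and GC trends removed; without single libraries they were 0 to 1. In daily females 0 became 2 with DESeq2. In both sexes 2 became 1 with limma-voom, with no filter, with length and GC trends removed and with the brown adipocyte score, 4 with only the compared groups and without the adipocyte-rich libraries, and 0 with the adipocyte score; without single libraries they were 1 to 3. With weekly prednisone 0 became 1 with DESeq2 in females and in both sexes, and without single libraries 0 to 2 and 0 to 1. Between daily and weekly prednisone 0 became 1 in females without the slow-fiber-rich libraries, and in both sexes 3 with the slow-fiber score, 1 without the slow-fiber-rich libraries, 1 without the adipocyte-rich libraries, and 0 to 1 without single libraries. For daily prednisone in both sexes, 15 alternatives gave 1 to 12 cofactors called higher, 0 to 6 PPAR targets called higher, 0 to 9 nuclear targets called lower and 0 to 9 mitochondrial genes called lower; with length and GC trends removed these were 4, 2, 4 and 1. The brown adipocyte score and the left-out marker-rich libraries were chosen after the data were seen. Shares of all genes called under each alternative are not given here, so a changed count may also reflect a change over the whole table.

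Replicate numbers did not pair the samples: of 45 pairs of same-numbered libraries 17 had a correlation of deviations over 0.1. In 1 of 15 pairs of groups, weekly and daily females, all 3 were over 0.1, and a fit of these groups alone with the replicate block called 0 regulators, as did the fit without it. With a replicate block over all groups, 1 regulator was called in daily males, 0 in daily females and 3 in both sexes, Ppara being the third (1.82, adjusted p = 0.0414). With 3 mice per group, Esrrg, Ppara and Ppargc1b had few counts and wide intervals.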
